A study of Mus musculus with 20 samples.

Results

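The 36 protein-coding mouse genes named Tbx, Sox or Gata with a number, leaving out Sox4 and Sox9, were followed through resting and regenerating liver. They were chosen by symbol alone from GENCODE M21, 36 of the 46603 gene identifiers counted, and comprise 13 T-box, 17 Sox and 6 Gata genes. Genes without any reads were kept. RNA was sequenced from livers of male mice aged 2 months in 4 groups of 5 samples. Wild-type (WT) mice were purchased C57BL/6J animals. EedHepKO (KO) mice carried Alb:Cre, in which the albumin promoter drives Cre, and Eed flox alleles with loxP sites that flank exons 3 and 6 of Eed, so the deletion is aimed at hepatocytes. Cells derived from precursors that used the promoter can carry it too, other liver cells keep Eed, and Eed was not measured by cell type. The labels name neither the transgene nor the floxed allele in WT mice, so genotype and colony cannot be told apart. Each mouse gave lobes 1, 2 and 3 at baseline, when they were removed by partial hepatectomy (PHx), and lobes 4, 5 and 6 after PHx, so stage and lobe cannot be told apart either. The samples after PHx were taken at 30 hours (1 per genotype), 40 hours (2 per genotype) and 48 hours (2 per genotype). WT replicates are numbered 1 to 5 and KO replicates 7, 8, 10, 11 and 12, and values are given in that order.

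T-box, Sox and Gata proteins are transcription factors, each family defined by its own DNA-binding domain: the T-box, the HMG box and the GATA zinc finger. Their members specify heart, limb, neural, cartilage, blood and gut lineages in the embryo, and a small number stay active in adult liver. Gata4 and Gata6 act in endoderm and in liver sinusoidal cells, Tbx3 in the growth of the liver bud, and Sox7, Sox17 and Sox18 in endothelium. EED is a core subunit of polycomb repressive complex 2 (PRC2), which places a repressive methyl mark on histone H3, and developmental transcription factor genes with CpG-rich promoters are its textbook targets. The design asks how loss of EED in hepatocytes changes expression at rest and after resection.

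Total counts ran from 21634890 to 30461351 per library, and no pair of libraries was identical. Eed ran from 14.6 to 23.2 counts per 1000000 of the scaled total (CPM) over the 10 WT libraries and from 2.75 to 7.52 CPM over the 10 KO libraries, without overlap. The summed level of 8 hepatocyte markers lay between 44680 and 149100 CPM in the 20 libraries. After PHx, 4 libraries stood apart: in WT replicates 2 and 4 and KO replicates 7 and 12 the summed level of the proliferation genes Mki67, Top2a, Ccnb1 and Mcm5 was 2.35, 5.57, 9.02 and 8.99 CPM, against 21.4 to 640 CPM in the other 6. The same 4 libraries had the lowest summed macrophage markers of their groups, 60.2 to 127 CPM against 171 to 330 CPM. Results that rest on them are given with and without them below. A gene is called higher or lower where edgeR gave it an adjusted p under 0.05, the adjustment (Benjamini-Hochberg) running over all 14661 genes tested, and SE is the standard error.

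More of these genes were counted in KO liver than in WT liver. The number of members with at least 1 count in a library was 15 to 19 (median 15) in WT at baseline and 16 to 19 (median 18) in WT after PHx. In KO it was 22 to 25 (median 24) at baseline and 24 to 29 (median 26) after PHx, so the genotypes did not overlap at either stage. Nor did they over all identifiers, of which 16428 to 16774 had a count in WT and 17716 to 18713 in KO at baseline, and 17246 to 17804 and 17910 to 20032 after PHx. Of the 36, 10 had no count in any of the 10 WT libraries: Tbx4, Tbx5, Tbx18, Tbx19, Tbx22, Sox1, Sox2, Sox3, Sox14 and Sox21. Only Tbx22, a gene of palate formation, and Sox14, a gene of neurons, also had none in the 10 KO libraries. Pooled over a group and scaled to depth, 25 members were higher in KO and 6 lower at baseline, and 29 were higher and 4 lower after PHx, many of them on a handful of reads. By the same rule 53.0% of all identifiers with a count were higher and 47.0% lower at baseline, and 53.7% and 46.3% after PHx.

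**Figure D1:**
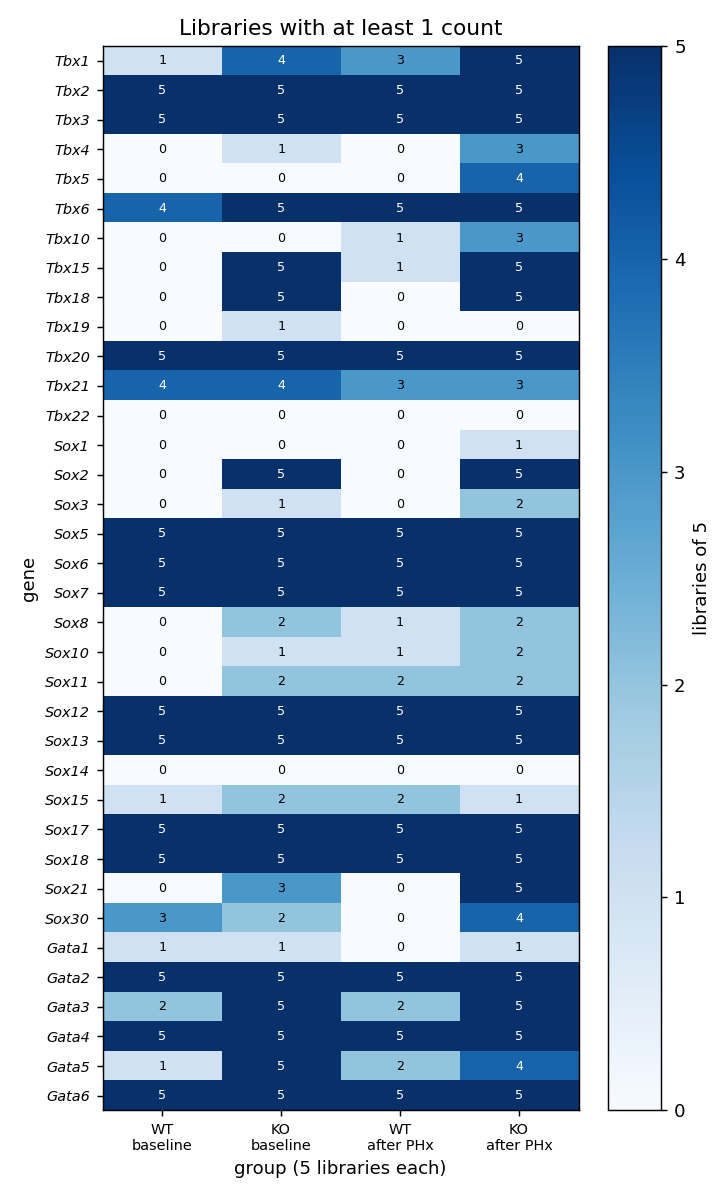
Number of libraries, of 5 in each group, in which each of the 36 genes (rows) had at least 1 count, with a darker cell for more libraries. Tbx18 and Sox2 had counts in 5 of 5 KO libraries at both stages and in 0 WT libraries, and the rows of Tbx22 and Sox14 are 0 throughout.

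Per length, Gata4 had the highest level of the 36 in all 4 groups, with a mean of 4.79 CPM per kilobase in WT at baseline, 3.88 in WT after PHx, 7.11 in KO at baseline and 6.65 in KO after PHx. In WT at baseline Tbx3 (3.86 CPM per kilobase) and Sox18 (3.38) came next. In KO after PHx the next were Gata6 (6.27 CPM per kilobase) and Tbx15 (3.67), a gene with no count in WT at baseline. Lengths are those of all annotated exons of a gene together, which lowers the level of genes with many isoforms such as Sox5 and Sox6.

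The promoters of 5 members that sit at the extremes are shown to compare their CpG content: Tbx18, Sox2 and Gata3, which were at or near 0 in WT and counted in every KO library, and Sox14 and Tbx22, which had no count at all. Sequences are from RefSeq, build GRCm38.p6, 250 bases before to 50 after the start, on the strand of the gene. Capitals mark each CpG.
Tbx18, chr9:87731211-87731510, minus strand: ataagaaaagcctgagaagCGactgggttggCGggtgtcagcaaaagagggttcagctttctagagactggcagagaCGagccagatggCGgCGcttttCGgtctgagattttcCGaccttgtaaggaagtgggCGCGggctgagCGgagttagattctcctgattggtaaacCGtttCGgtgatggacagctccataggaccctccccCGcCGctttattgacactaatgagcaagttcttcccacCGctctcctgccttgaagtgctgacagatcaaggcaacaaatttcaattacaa
Sox2, chr3:34649745-34650044, plus strand: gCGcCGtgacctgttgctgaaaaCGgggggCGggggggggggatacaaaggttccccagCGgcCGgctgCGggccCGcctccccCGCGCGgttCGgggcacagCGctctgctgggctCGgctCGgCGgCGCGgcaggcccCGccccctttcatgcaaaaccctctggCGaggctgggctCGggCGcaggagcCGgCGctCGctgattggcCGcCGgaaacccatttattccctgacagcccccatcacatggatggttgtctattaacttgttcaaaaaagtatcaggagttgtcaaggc
Gata3, chr2:9878551-9878850, minus strand: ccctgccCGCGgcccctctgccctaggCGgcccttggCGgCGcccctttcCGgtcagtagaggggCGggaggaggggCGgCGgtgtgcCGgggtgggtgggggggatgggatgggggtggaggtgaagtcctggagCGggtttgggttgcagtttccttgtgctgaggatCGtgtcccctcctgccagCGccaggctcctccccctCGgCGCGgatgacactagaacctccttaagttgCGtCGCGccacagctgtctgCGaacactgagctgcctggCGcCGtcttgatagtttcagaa
Sox14, chr9:99876121-99876420, minus strand: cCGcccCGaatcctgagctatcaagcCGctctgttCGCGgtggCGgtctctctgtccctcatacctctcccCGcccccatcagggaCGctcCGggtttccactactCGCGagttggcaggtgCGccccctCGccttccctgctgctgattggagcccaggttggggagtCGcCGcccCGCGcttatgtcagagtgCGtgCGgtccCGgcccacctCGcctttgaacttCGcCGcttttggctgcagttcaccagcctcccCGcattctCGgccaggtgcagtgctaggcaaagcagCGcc
Tbx22, chrX:107667714-107668013, plus strand: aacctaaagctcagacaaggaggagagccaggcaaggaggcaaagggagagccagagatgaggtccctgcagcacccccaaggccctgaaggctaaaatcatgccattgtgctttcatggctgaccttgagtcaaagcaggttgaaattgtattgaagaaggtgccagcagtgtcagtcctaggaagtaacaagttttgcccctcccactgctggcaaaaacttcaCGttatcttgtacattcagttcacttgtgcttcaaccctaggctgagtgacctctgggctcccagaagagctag
The promoters of Tbx18, Sox2, Gata3 and Sox14 held 15, 27, 22 and 26 CpGs, whereas that of Tbx22 held 1. Sox14 thus had a CpG-rich promoter and no reads in either genotype. RefSeq promoters matched 25 of the 36 members. The 34 promoters of these 25 had a median of 15.5 CpGs and 60.2% G+C, with a CpG observed over expected ratio of 0.652, against 7 CpGs, 52.7% and 0.384 over all 32851 promoters in the table. Taking the first listed for each member, the median was 21 CpGs. On that basis the 6 members with a promoter entry that were called in KO against WT at both stages had a median of 26.5 CpGs, Tbx1, called after PHx only, held 26, and the 15 that could not be tested had a median of 21 CpGs. The 3 tested and not called held 3 CpGs in Sox5, 11 in Sox6 and 47 in Sox12, the most of the 25. The Sox5 entry (143947057 to 143947356, minus strand) lies inside the annotated gene (143828425 to 144781977), not at its annotated start. Short motifs that these families recognise were searched on both strands, none of them contained in another. The Gata motif GATAAG occurred in 0% of the members' 34 promoters and in 7.44% of all promoters. The Sox motif ACAAT occurred in 26.5% of the members' promoters, against 31% of all. For the T-box motif GGTGTG the shares were 20.6% and 19%.

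In KO against WT at baseline, 8 of the 18 members that passed the filter on low counts were called higher and 0 lower: Tbx2, Tbx15, Tbx18, Tbx20, Sox2, Sox13, Gata2 and Gata3. Over all genes tested, 11.1% were called higher and 4.89% lower. After PHx, 12 of 18 were called higher, the same 8 with Tbx1, Sox7, Gata4 and Gata6, and 0 lower, beside 16% and 8.2% of all genes. At an unadjusted p under 0.05 edgeR gave 1 member lower at baseline (Tbx3) and 0 lower after PHx. DESeq2 called 0 lower at both stages, beside 6.14% of all genes at baseline and 10.2% after PHx. Tbx15, Tbx18, Sox2 and Gata3 were under 0.5 CPM in every WT library and passed the filter only through KO libraries, and Tbx1, which reached the filter's level in 2 of 10 WT libraries, passed through those of KO after PHx. The first 4 had to differ, Tbx1 entered the tests at both stages by its KO level after PHx, and the counts of 18 are a description. Of the 18 not tested, 16 had counts in some library. Without the 4 libraries low in proliferation markers, 8 members were called higher after PHx, beside 15.3% of all genes in that fit, and Tbx1, Sox7, Gata4 and Gata6 were not. In bulk liver, more cells of a type and more RNA per cell cannot be told apart.

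**Figure D2:**
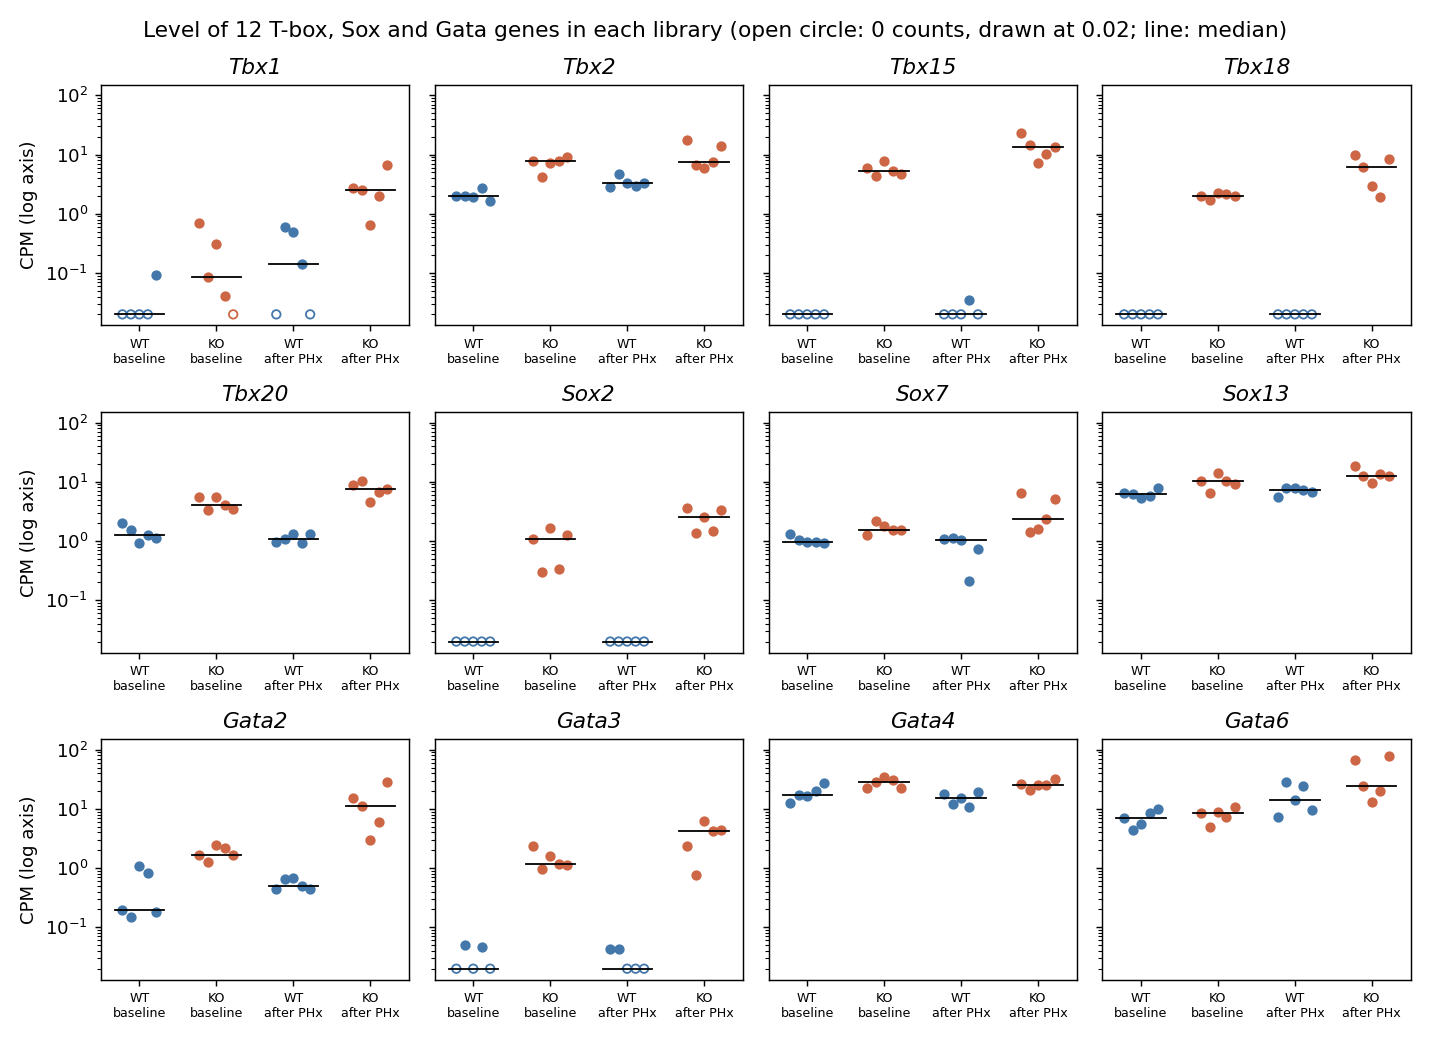
Level in CPM (log axis) of the 12 genes called in KO against WT after PHx, 1 point per library, WT in blue and KO in orange, with the median of each group as a line and libraries without a count as open circles at 0.02. Tbx15, Tbx18, Sox2 and Gata3 are at or near 0 in WT and above it in every KO library, while the Gata6 points of both genotypes overlap at both stages.

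The T-box genes with the clearest separation were Tbx15 and Tbx18, 2 members of the Tbx1 subfamily. Tbx15 (ENSMUSG00000027868, mm10 chromosome 3, 99240381 to 99354259), a gene of skeletal and adipose development, had 0 counts in the 5 WT libraries at baseline and 5.91, 4.27, 7.90, 5.19 and 4.70 CPM in KO replicates 7, 8, 10, 11 and 12. After PHx it had 1 read in WT, in replicate 4, and 23.1, 14.5, 7.25, 10.3 and 13.7 CPM in KO. No KO library overlapped a WT library at either stage. Against a floor of 3 counts over the WT group it was at least 188-fold higher at baseline (edgeR adjusted p 3.46e-07). After PHx the ratio of pooled levels was 1821 (95% counting interval 326 to 71940, edgeR adjusted p 1.01e-07). Tbx15 passed the filter only through KO libraries, so both p-values are a description.

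Tbx18 (ENSMUSG00000032419, chromosome 9, 87702800 to 87731260), known from the epicardium and the sinus node, had no read in any of the 10 WT libraries. In KO it had 2.02, 1.69, 2.24, 2.12 and 2.02 CPM at baseline, a narrow band, and 9.89, 6.17, 2.94, 1.95 and 8.33 CPM after PHx. It was at least 66.5-fold higher at baseline (edgeR adjusted p 3.36e-05) and at least 249-fold higher after PHx (edgeR adjusted p 5.35e-06). Both p-values are a description, since Tbx18 passed the filter only through KO libraries. An annotated transcript on the other strand, D030062O11Rik, overlaps its exons and had 0 counts in WT and 24 and 170 counts in KO at the 2 stages. The strand setting of the counting is not given in the sources used here, so reads of such pairs cannot be told apart.

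Tbx20 and Tbx2, both genes of heart formation, were already on in WT liver and were higher in KO without overlap at either stage. Tbx20 (ENSMUSG00000031965, chromosome 9, 24718138 to 24774303) had 2.02, 1.55, 0.926, 1.24 and 1.10 CPM in WT and 5.44, 3.30, 5.59, 4.03 and 3.52 CPM in KO at baseline. After PHx it had 0.959, 1.09, 1.29, 0.922 and 1.30 CPM in WT and 8.66, 10.2, 4.62, 6.67 and 7.57 CPM in KO. Its log2 fold change was 1.68 (edgeR adjusted p 0.000318, SE 0.28) at baseline and 2.75 (edgeR adjusted p 2.38e-06, SE 0.28) after PHx. Tbx2 (ENSMUSG00000000093, chromosome 11, 85832551 to 85841948), a repressor linked to cell-cycle control, had 2.02, 2.00, 1.90, 2.75 and 1.65 CPM in WT and 7.90, 4.23, 7.28, 7.93 and 9.06 CPM in KO at baseline. Its level after PHx was 2.88, 4.61, 3.31, 2.94 and 3.37 CPM in WT and 17.4, 6.57, 5.91, 7.37 and 13.9 CPM in KO, with replicates 7 and 12 the highest. The log2 fold change of Tbx2 was 1.81 (edgeR adjusted p 0.000424, SE 0.31) at baseline and 1.58 (edgeR adjusted p 0.000812, SE 0.30) after PHx. At 40 hours alone, with 2 samples per genotype, Tbx2 was not called (log2 fold change 0.75, edgeR adjusted p 0.247), and without the 4 libraries low in proliferation markers its value was smaller (log2 fold change 1.02, edgeR adjusted p 0.014).

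Tbx1 (ENSMUSG00000009097, chromosome 16, 18580979 to 18590671), a gene of the pharyngeal arches, was sparse at baseline, with 2 reads in WT and 0.697, 0.0845, 0.310, 0.0415 and 0 CPM in KO, and was not called there (edgeR adjusted p 0.112), except with library size alone (edgeR adjusted p 0.0458). After PHx it had 0, 0.609, 0.495, 0.142 and 0 CPM in WT and 2.73, 2.55, 0.648, 2.00 and 6.67 CPM in KO. The groups after PHx did not overlap, and the highest library was KO replicate 12, the 30 hour sample. The log2 fold change after PHx was 3.54 (edgeR adjusted p 0.0136, SE 0.99), a description, since the gene entered the fit through these KO libraries. The call ended without the 30 hour samples (log2 fold change 2.67, edgeR adjusted p 0.0607), at 40 hours alone (log2 fold change 1.27, edgeR adjusted p 0.476), with only the samples compared in the fit (log2 fold change 3.57, edgeR adjusted p 0.0501) and without the 4 libraries low in proliferation markers (log2 fold change 3.31, edgeR adjusted p 0.0688).

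Tbx3 (ENSMUSG00000018604, chromosome 5, 119670669 to 119684724), a gene of hepatoblast growth, had the highest WT level per length of the T-box genes and was not called. It had 32.4, 14.2, 8.29, 28.9 and 44.0 CPM in WT and 13.7, 7.18, 12.6, 10.1 and 13.2 CPM in KO at baseline, with overlapping groups and a WT range wider than that of KO. Its log2 fold change was -1.17 (edgeR adjusted p 0.114, SE 0.49) at baseline and 0.25 (edgeR adjusted p 0.742, SE 0.49) after PHx. With only the 10 baseline samples in the fit it was called lower (log2 fold change -1.15, edgeR adjusted p 0.0242). Its antisense neighbour Tbx3os1, whose exons overlap it, had 2.29 ± 0.795 CPM in WT and 0.743 ± 0.201 CPM in KO at baseline (SD, n = 5), a log2 fold change of -1.61 (edgeR adjusted p 0.199).

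Tbx4 and Tbx5, genes of limb and heart identity, lie next to Tbx2 and Tbx3, with gaps of 44.5 kilobases on chromosome 11 and 148 kilobases on chromosome 5. Both had 0 counts in the 10 WT libraries. Over the 5 KO libraries after PHx, Tbx4 had 13 counts and Tbx5 22 counts, at least 3.46-fold and at least 5.86-fold higher. Fitted without a filter, the edgeR adjusted p after PHx was 0.0629 for Tbx4 and 0.0467 for Tbx5. Tbx10 had 1 count in WT and 11 in KO after PHx, of which 9 were in replicate 12, and Tbx19, a pituitary gene, had 1 count in all. Tbx6, a gene of paraxial mesoderm, and Tbx21, which encodes the T-cell factor T-bet, had low counts in both genotypes. Tbx6 had 15 counts in WT and 31 in KO at baseline and 30 and 25 after PHx. Tbx21 had 9 and 32 counts at baseline and 6 and 11 after PHx.

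Among the Sox genes, Sox2 had no read in WT and was counted in every KO library at both stages. Sox2 (ENSMUSG00000074637, chromosome 3, 34650405 to 34652461), a gene of neural progenitors and pluripotent cells, had 1.06, 0.296, 1.66, 0.332 and 1.27 CPM in KO at baseline and 3.54, 1.38, 2.56, 1.501 and 3.31 CPM after PHx. Replicates 8 and 11 were the lowest at both stages. It was at least 31.2-fold higher at baseline (edgeR adjusted p 0.000382) and at least 99.0-fold higher after PHx (edgeR adjusted p 4.77e-05). Sox2 passed the filter only through KO libraries, so both p-values are a description. With only the 10 baseline samples in the fit Sox2 did not pass the filter on low counts. The long transcript Sox2ot, which spans it, had 0 counts in WT and 4 and 10 counts in KO. Its closest relatives Sox1 and Sox3 had 0 counts in WT and at most 2 counts per KO group.

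Sox21 (ENSMUSG00000061517, chromosome 14, 118233232 to 118237030), a neural gene, did not pass the filter, and had 0 counts in WT and 3 in KO at baseline. Its level after PHx was 1.14, 0.615, 0.0763, 0.306 and 0.473 CPM in KO, 89 counts against 0 in WT, at least 23.7-fold higher, and the genotypes did not overlap. Fitted without a filter its edgeR adjusted p after PHx was 0.00147. Sox30, a gene of sperm development, had 3 counts in each genotype at baseline, and 0 in WT and 22 in KO after PHx, at least 5.86-fold higher (edgeR adjusted p without a filter 0.0184).

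Sox13, Sox5 and Sox6 make up the SoxD group, of which Sox5 and Sox6 act in cartilage. Only Sox13 was called between the genotypes. Sox13 (ENSMUSG00000070643, chromosome 1, 133382303 to 133424377) had 6.37, 6.20, 5.35, 5.69 and 7.75 CPM in WT and 10.2, 6.38, 14.1, 10.47 and 9.01 CPM in KO at baseline, where KO replicate 8 lay within the WT range. After PHx it had 5.62, 7.83, 7.99, 7.30 and 6.80 CPM in WT and 18.3, 12.7, 9.57, 13.3 and 12.7 CPM in KO, without overlap. The log2 fold change of Sox13 was 0.68 (edgeR adjusted p 0.034, SE 0.21) at baseline and 0.91 (edgeR adjusted p 0.00409, SE 0.21) after PHx. The baseline call ended when any of WT replicates 1 to 4 or KO replicates 10 or 11 was left out, with edgeR adjusted p between 0.0602 and 0.116. The call after PHx ended at 40 hours alone (log2 fold change 0.53, edgeR adjusted p 0.279). Neither Sox5 nor Sox6 was called between the genotypes. At baseline their log2 fold changes were -0.17 and -0.14, which turned to 0.29 and 0.34 with library size alone, and after PHx they were 0.41 and 0.59. Sox6 was called higher after PHx in 5 of 21 alternatives, at 40 hours alone (log2 fold change 1.15, edgeR adjusted p 0.036), with library size alone, without the 30 hour samples and without WT replicate 5 or KO replicate 12, with log2 fold changes of 0.72 to 1.15. Sox5os4, which overlaps Sox5 on the other strand outside its exons, had 0.0615 ± 0.112 CPM in WT and 0.424 ± 0.183 CPM in KO at baseline (SD, n = 5, edgeR adjusted p 0.0312), and passed the filter only with KO libraries. After PHx it was the lower in KO, 0.410 ± 0.228 against 0.831 ± 0.665 CPM (SD, n = 5), and not called (log2 fold change -0.99, edgeR adjusted p 0.286). Sox6os, placed likewise at Sox6, was not called (log2 fold change -0.34 at baseline and -0.36 after PHx).

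The SoxF genes Sox7, Sox17 and Sox18 act in endothelium, and of them only Sox7, after PHx, was called between the genotypes. Sox7 (ENSMUSG00000063060, chromosome 14, 63943673 to 63950732) had 1.09, 1.13, 1.03, 0.213 and 0.721 CPM in WT and 6.41, 1.43, 1.60, 2.36 and 5.02 CPM in KO after PHx, with KO replicates 7 and 12 far above the others and no overlap. Its log2 fold change was 2.00 (edgeR adjusted p 0.00281, SE 0.45) after PHx and 0.66 (edgeR adjusted p 0.322, SE 0.44) at baseline, where it was called in 1 of 19 alternatives, with only the samples compared (log2 fold change 0.69, edgeR adjusted p 0.0434). The call after PHx ended without the 4 libraries low in proliferation markers (log2 fold change 0.91, edgeR adjusted p 0.0721) and at 40 hours alone (log2 fold change 0.88, edgeR adjusted p 0.34). Sox18 (ENSMUSG00000046470, chromosome 2, 181669836 to 181671640) had 3.18, 1.17, 4.83, 1.88 and 2.71 CPM in WT and 0.450, 1.12, 4.35, 5.28 and 0.379 CPM in KO after PHx, and was lowest in WT replicates 2 and 4 and in KO replicates 7 and 12. Sox18 was not called, with a log2 fold change of -0.15 at baseline and -0.25 after PHx, both positive with library size alone (0.32 and 0.19). At 48 hours alone it was called lower (log2 fold change -1.53, edgeR adjusted p 0.0491). Sox17 (ENSMUSG00000025902, chromosome 1, 4490931 to 4497354) had 1.21 ± 0.626 CPM in WT and 1.96 ± 0.507 CPM in KO at baseline (SD, n = 5), with a log2 fold change of 0.70 (edgeR adjusted p 0.21, SE 0.37), and was called there in 1 of 19 alternatives, with library size alone (1.20, edgeR adjusted p 0.0236). Of 10 endothelial markers, 1 was called higher at each stage and 0 lower: Cdh5, with log2 fold changes of 0.57 and 0.51. This is beside 11.1% and 16% of all genes, and the list's median was 0.01 and -0.04. The summed endothelial level after PHx was 91.0 to 165 CPM in WT and 103 to 197 CPM in KO, and its part in these values was not tested.

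Of the SoxC and SoxE members of the 36, only Sox12 was tested. Sox12 (ENSMUSG00000051817, chromosome 2, 152393611 to 152398063), which has a broad expression in the embryo, had 5.19, 5.22, 3.84, 0.319 and 2.37 CPM in WT and 10.2, 10.4, 9.73, 4.84 and 4.64 CPM in KO after PHx. WT replicates 1 and 2 lay among the KO values, and WT replicate 4 was far below the rest. The log2 fold change was 1.23 (edgeR adjusted p 0.0632, SE 0.47) after PHx and 0.65 (edgeR adjusted p 0.38, SE 0.47) at baseline, and it was called higher after PHx in 6 of 21 alternatives: by DESeq2 (log2 fold change 1.23, DESeq2 adjusted p 0.0302), with library size alone, without the 30 hour samples, without WT replicate 2 or KO replicate 12, and at 48 hours alone, with log2 fold changes of 1.23 to 2.93. Sox8 and Sox10, genes of the neural crest, had at most 4 counts in any group. Sox11, a gene of neurons, had 15 counts in KO after PHx, 13 of them in replicate 8. Sox15 shares exon bases with Mpdu1 on the other strand and had at most 4 counts in any group.

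The Gata genes of the blood group, Gata2 and Gata3, rose in KO at both stages. Gata3 (ENSMUSG00000015619, chromosome 2, 9857078 to 9890034), known from T cells and several epithelia, had 2 counts over the WT group at each stage. In KO it had 2.32, 0.972, 1.62, 1.16 and 1.13 CPM at baseline and 2.40, 0.769, 6.33, 4.31 and 4.36 CPM after PHx. The ratio of pooled levels was 73.7 at baseline (95% counting interval 20.1 to 613, edgeR adjusted p 4.24e-05). After PHx it was 211 (95% counting interval 58.1 to 1745, edgeR adjusted p 2.83e-06). Both p-values are a description, since Gata3 passed the filter only through KO libraries. The annotated gene 9230102O04Rik, which shares exon bases with Gata3 on the same strand, had 0 counts in WT and 9 and 11 counts in KO, and Gm13256, on the other strand, had 6 counts in WT at baseline. Outside its exons, 4930412O13Rik on the other strand had 1 and 6 counts in WT and 9 and 70 in KO. The summed level of 8 T and NK cell markers was 0.963 to 2.10 CPM in WT and 2.25 to 5.28 CPM in KO at baseline, and 0.0870 to 0.480 CPM and 0.132 to 1.31 CPM after PHx. None of them was at 0 in a whole group, 0 of the 3 tested, which all passed the filter only with KO libraries, were called between the genotypes, and their part in the Gata3 values was not tested.

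Gata2 (ENSMUSG00000015053, chromosome 6, 88193891 to 88207032), a gene of blood stem cells, mast cells and endothelium, had 0.195, 0.150, 1.08, 0.826 and 0.183 CPM in WT and 1.66, 1.27, 2.48, 2.16 and 1.64 CPM in KO at baseline. Its level after PHx was 0.436, 0.652, 0.685, 0.496 and 0.446 CPM in WT and 15.2, 11.3, 2.94, 5.98 and 28.8 CPM in KO. The genotypes did not overlap at either stage, and the KO values after PHx spanned the widest range, with replicate 12 at 30 hours the highest and replicate 10 at 40 hours the lowest. On the log2 scale the fold change was 1.90 (edgeR adjusted p 0.0266, SE 0.57) at baseline and 4.55 (edgeR adjusted p 2.72e-05, SE 0.60) after PHx. The baseline call ended without WT replicate 1, 2 or 5 or KO replicate 10 or 11, with edgeR adjusted p between 0.0502 and 0.0704. After PHx the call held with a smaller value without the 4 libraries low in proliferation markers (log2 fold change 3.62, edgeR adjusted p 0.00126) and at 40 hours alone (log2 fold change 2.73, edgeR adjusted p 0.0212). Of 4 mast cell markers, Cpa3, Fcer1a and Ms4a2 were at 0 in KO at both stages, and the summed level was at most 0.0332 CPM in any KO library. Gata1, the erythroid factor, had at most 2 counts in any group.

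Gata4 and Gata6 act in endoderm and liver, and both had at least 88 counts in every library. Gata4 (ENSMUSG00000021944, chromosome 14, 63198922 to 63271692) had 12.7, 17.2, 16.2, 20.0 and 27.3 CPM in WT and 22.4, 28.3, 34.8, 30.99 and 22.2 CPM in KO at baseline, with overlap from WT replicate 5. After PHx it had 17.8, 12.1, 15.4, 10.8 and 19.6 CPM in WT and 26.2, 21.1, 24.9, 24.99 and 32.5 CPM in KO, without overlap. The log2 fold change was 0.57 (edgeR adjusted p 0.0717, SE 0.21) at baseline, where it was called in 5 of 19 alternatives, among them DESeq2 (log2 fold change 0.60, DESeq2 adjusted p 0.0421), and 0.77 (edgeR adjusted p 0.0116, SE 0.21) after PHx. The call after PHx ended at 40 hours alone (log2 fold change 0.86, edgeR adjusted p 0.1), at 48 hours alone (log2 fold change 0.63, edgeR adjusted p 0.182) and without the 4 libraries low in proliferation markers (log2 fold change 0.40, edgeR adjusted p 0.254).

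Gata6 (ENSMUSG00000005836, chromosome 18, 11052064 to 11085635) was not called between the genotypes at baseline, with 7.09, 4.40, 5.66, 8.67 and 9.86 CPM in WT and 8.60, 4.86, 8.97, 7.44 and 10.6 CPM in KO. Its log2 fold change there was 0.18 (edgeR adjusted p 0.827, SE 0.45). Its level after PHx was 7.19, 28.6, 13.96, 24.7 and 9.41 CPM in WT and 67.5, 24.6, 12.9, 20.1 and 79.0 CPM in KO. The groups overlapped, and in each genotype the highest values were in the libraries with the lowest proliferation markers: replicates 2 and 4 in WT, and 7 and 12 in KO. The log2 fold change after PHx was 1.28 (edgeR adjusted p 0.0439, SE 0.45), a call that ended in 10 of 21 alternatives and reversed in 1 more. It turned to -0.36 at 40 hours alone (edgeR adjusted p 0.673), was 1.43 at 48 hours alone (edgeR adjusted p 0.0623) and was 0.70 without the 30 hour samples (edgeR adjusted p 0.274). Without the 4 libraries low in proliferation markers the value was 0.88 (edgeR adjusted p 0.07). The call also ended without WT replicate 1 (1.08, adjusted p 0.101), 3 (1.22, adjusted p 0.0863) or 5 (1.13, adjusted p 0.101), and without KO replicate 7 (1.07, adjusted p 0.112) or 12 (0.90, adjusted p 0.147), all in edgeR. The part of proliferation and of macrophage RNA in these values was not tested. The transcript 1010001N08Rik on the other strand, which shares exon bases with Gata6, was called lower in KO at baseline (log2 fold change -1.96, edgeR adjusted p 0.0398) and not after PHx (-0.25, edgeR adjusted p 0.785). From baseline to after PHx in KO it was called higher (1.84, edgeR adjusted p 0.0327), as Gata6 was. Gata5, a gene of heart and endoderm, had 4 counts in WT and 9 in KO at baseline and 3 and 19 after PHx, where the ratio of pooled levels was 5.06 (95% counting interval 1.49 to 26.7).

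**Figure D3:**
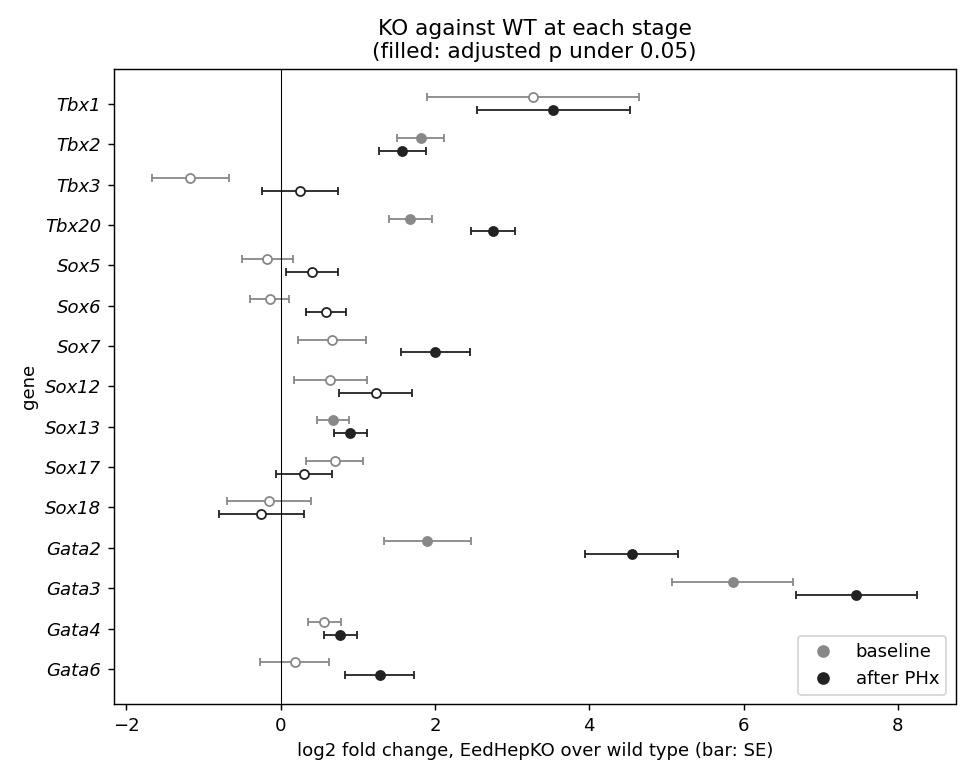
Log2 fold change of KO over WT with its SE for the 15 tested genes that had counts in all 4 groups, at baseline (grey) and after PHx (black), filled where the edgeR adjusted p was under 0.05. Gata3 (5.86 and 7.46) and Gata2 (1.90 and 4.55) stand farthest to the right among the genes called at both stages, and every open symbol left of 0 is a difference that was not called.

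Counting genes whose 5 KO values all lay above the 5 WT values, 7 of the 31 members with a count at baseline did so, beside 10.8% of the 22744 identifiers with a count, and 0 lay below, beside 8.02%. After PHx 12 of 33 lay above, beside 5.13% of 24476 identifiers, and 0 lay below, beside 1.88%. The 12 were those called after PHx without Gata6 and with Sox21.

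The response to PHx, the change from baseline to regenerating liver within a genotype, was compared next. The main fit used group means and did not pair the samples of a mouse. Results with the mouse as a block are given further below. In WT, 0 of 18 members were called higher and 2 lower, Sox5 and Sox6, beside 11.4% higher and 8.68% lower of all genes. An unadjusted edgeR p under 0.05 was met by 3 members that were higher (Tbx1, Tbx2 and Gata6), and DESeq2 called 2 of these, Tbx1 and Gata6, beside 15.5% of all genes, the latter called in 6 of 21 alternatives. In KO, 6 were called higher (Tbx1, Tbx15, Tbx18, Tbx20, Gata2 and Gata6) and 0 lower, beside 17.5% and 12.1%. DESeq2 called 9 higher, these 6 with Gata3, Sox7 and Sox2, beside 21% of all genes. Tbx1 and Sox2 passed the filter only through the KO libraries after PHx, the high group here, so their place in these counts is a description. At an unadjusted edgeR p under 0.05, and by DESeq2, 0 members were lower in KO, the latter beside 13.8% of all genes. The proliferation markers Mki67, Top2a, Ccnb1 and Mcm5 were all called higher after PHx in WT, and 0 of the 4 in KO. Markers of other cell types moved in the KO response too: the cholangiocyte genes Krt19, Krt7 and Epcam were called higher (3 of 7). Called lower were 3 of 10 endothelial markers (Oit3, Erg and Kdr) and 3 of 8 macrophage markers (Adgre1, Clec4f and Csf1r). Lyve1 and Marco, of the same lists, were called higher. Also lower were 2 of 10 stellate cell and fibroblast markers (Lrat and Reln), 2 of 8 hepatocyte markers (Ttr and Serpina1c), Alas2 and Gpm6a. So were the 3 T and NK cell markers tested. These 3 and Gpm6a passed the filter only with KO libraries, more of them from baseline, the high group here. Their calls are a description. In WT the cholangiocyte list and the stellate cell and fibroblast list had 0 calls. Oit3, Kdr, Csf1r, Cd3g, Nkg7, Cyp2e1, Ttr, Serpina1c and Alas2 were called lower, and Cd68, Marco, Pf4, Upk3b and Msln higher. Of these, Cd3g, Nkg7, Upk3b and Msln passed the filter only with KO libraries. The part of these cell types in the members' responses was not tested. Without the 4 libraries low in proliferation markers, 0 members were called lower in WT, beside 5.57% of all genes. In KO that fit called 2 higher, Gata2 and Gata6, beside 13.8% of all genes.

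Sox5 and Sox6 were the members called lower in WT, and both calls ended under several alternatives. Sox6 (ENSMUSG00000051910, chromosome 7, 115470872 to 116038796) went from 15.3, 13.6, 17.03, 19.9 and 15.1 CPM at baseline to 7.80, 6.18, 8.11, 9.25 and 12.4 CPM after PHx, without overlap, a log2 fold change of -0.89 (edgeR adjusted p 0.0211, SE 0.26). With the mouse as a block it was -0.90 (edgeR adjusted p 0.0713), and in the same 9 mice without the block -0.87 (edgeR adjusted p 0.0598), so neither was called. It was also not called without WT baseline replicate 4 (-0.80, edgeR adjusted p 0.0575), without WT replicate 2 after PHx (-0.78, edgeR adjusted p 0.0588), with library size alone (-0.51, edgeR adjusted p 0.255) and without the 4 libraries low in proliferation markers (-0.71, edgeR adjusted p 0.058). In WT Sox5os4 rose from 0.0615 ± 0.112 to 0.831 ± 0.665 CPM (SD, n = 5, log2 fold change 3.66, edgeR adjusted p 0.00458). Sox5 (ENSMUSG00000041540, chromosome 6, 143828425 to 144781977) went from 6.05, 18.7, 25.1, 16.2 and 14.4 CPM to 8.46, 8.70, 10.1, 3.72 and 9.68 CPM. Replicate 1 had the lowest baseline value, within the range after PHx, so the groups overlapped. Its log2 fold change was -0.98 (edgeR adjusted p 0.0434, SE 0.34), a call that ended in 14 of 21 alternatives, with values from -1.30 to -0.64. Among them were the fits without WT baseline replicate 2, 3, 4 or 5 and without WT replicate 1, 2, 4 or 5 after PHx, with edgeR adjusted p between 0.0573 and 0.137. In KO the same change was -0.16 for Sox6 and -0.40 for Sox5, neither called, and Sox6 turned to 0.19 with library size alone.

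Gata2 had 1.84 ± 0.478 CPM in KO at baseline and 12.8 ± 10.1 CPM after PHx (SD, n = 5), and rose by a log2 fold change of 2.80 (edgeR adjusted p 0.00196, SE 0.55), without overlap. Gata6 rose with 2.33 (edgeR adjusted p 0.00222, SE 0.47). For Tbx1, which passed the filter through the KO libraries after PHx, the log2 fold change was 3.60 (edgeR adjusted p 0.0122, SE 0.99), from a baseline at which 1 KO library had no read. Gata2 and Gata6 were called in all 21 alternatives each, with the lowest values, 1.81 and 1.21, without the 4 libraries low in proliferation markers. Tbx15 rose with a log2 fold change of 1.30 (edgeR adjusted p 0.0128, SE 0.35), and Tbx18 with 1.53 (edgeR adjusted p 0.0232, SE 0.44). Tbx20 rose with 0.78 (edgeR adjusted p 0.0323, SE 0.26). With the mouse as a block, Tbx18 (1.31, edgeR adjusted p 0.083) and Tbx20 (0.77, edgeR adjusted p 0.103) were not called, while Sox2 (1.59, edgeR adjusted p 0.0365), which entered the fit through the KO libraries after PHx, was called higher and Sox18 (-1.75, edgeR adjusted p 0.0441) lower. Without the 4 libraries low in proliferation markers the log2 fold changes were 2.81 for Tbx1, 0.89 for Tbx15, 0.82 for Tbx18 and 0.66 for Tbx20, none of them called. Tbx18 was also not called without KO baseline replicate 8 (1.47, edgeR adjusted p 0.0517) or KO replicate 7 after PHx (1.28, edgeR adjusted p 0.0599), and Tbx15 with hour as a term (1.24, edgeR adjusted p 0.101). The Tbx20 call ended in 10 of 21 alternatives, among them the fits without KO baseline replicate 8, 11 or 12 and without KO replicate 7 or 8 after PHx, with edgeR adjusted p between 0.0665 and 0.0989.

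**Figure D4:**
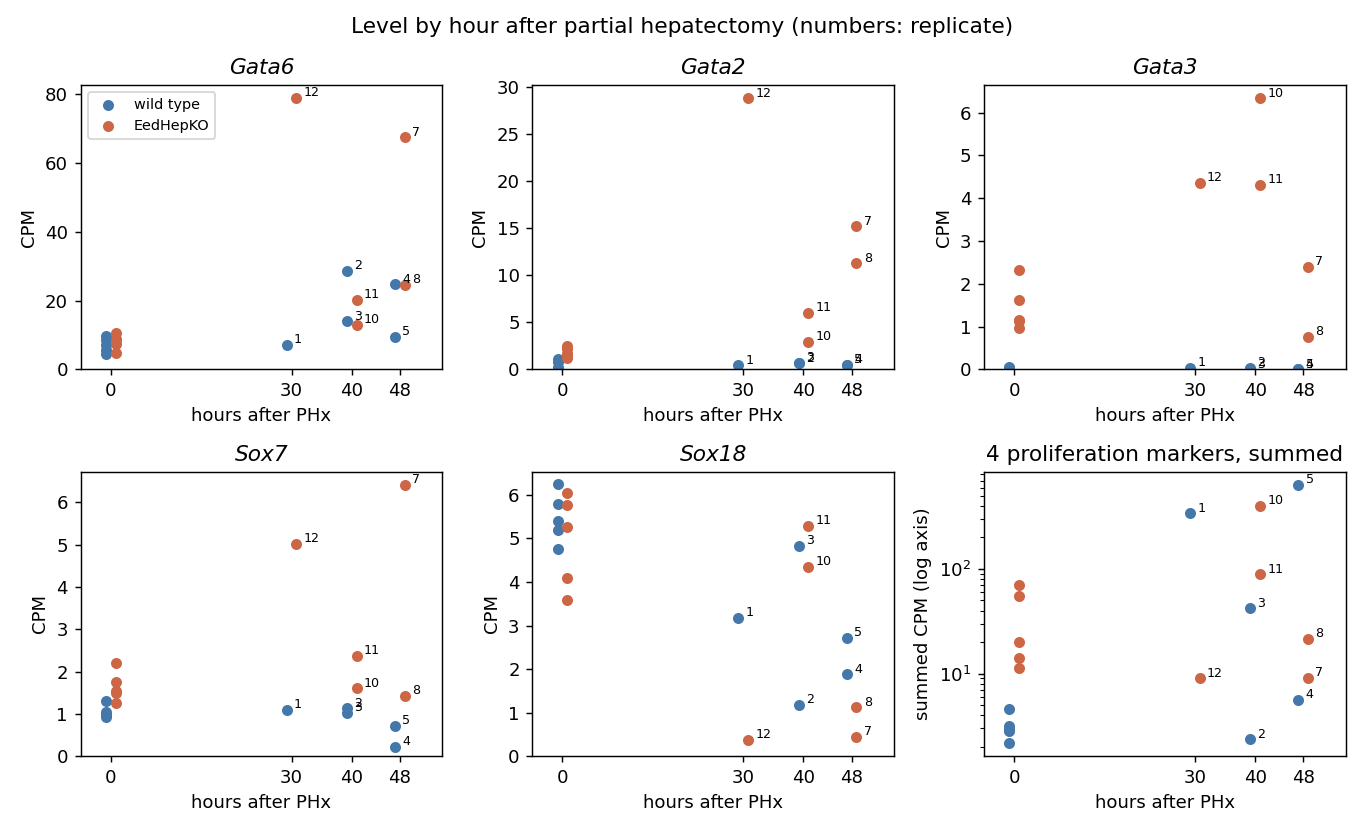
Level in CPM of Gata6, Gata2, Gata3, Sox7 and Sox18, and summed CPM of 4 proliferation markers (log axis), against hours after PHx, 1 point per library, WT in blue and KO in orange, numbered by replicate after PHx. KO replicates 7 and 12 have the highest Gata6 and Sox7, the lowest Sox18 and the lowest proliferation markers of the KO group, while Gata3 is highest in KO replicate 10.

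The difference between the responses of the genotypes was tested itself. With edgeR, 0 of 18 members had a larger and 0 a smaller response in KO, beside 0.164% and 0.225% of all genes. On simulated counts this test recovered 49.5% of changes of 2 log2 units. At an unadjusted p under 0.05, 3 had a larger response (Gata2, Tbx20 and Sox7) and 0 a smaller one, and DESeq2 called 1 larger, Gata2, and 0 smaller, beside 1.31% and 1.26% of all genes. The difference of the log2 responses was 2.65 (edgeR adjusted p 0.147, SE 0.79) for Gata2, 1.07 (edgeR adjusted p 0.223, SE 0.38) for Tbx20 and 1.34 (edgeR adjusted p 0.351, SE 0.62) for Sox7. The fitted value is the same quantity as the difference between the log2 fold changes of KO over WT at the 2 stages, so the members called only after PHx were not shown to differ between stages.

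Within KO after PHx, replicates 7 and 12, from 48 and 30 hours and low in proliferation markers, were the highest for 8 of the 18 members tested: Tbx1, Tbx2, Tbx18, Sox2, Sox7, Gata2, Gata4 and Gata6. All 8 are among the 12 called higher after PHx, a call that high values in these libraries enter. The same libraries were the highest for 16.8% of all genes tested and for 17.3% of all genes called higher. The other 4 called, Tbx15, Tbx20, Sox13 and Gata3, had another order. Gata3 was highest in replicates 10, 11 and 12 and lowest in replicate 8, and Sox5 and Sox6 were highest in replicate 11. KO replicates 7 and 8 were both taken at 48 hours and differed in Gata6 (67.5 and 24.6 CPM), Tbx2 (17.4 and 6.57 CPM) and Sox7 (6.41 and 1.43 CPM). At 30 hours, with 1 sample per genotype, hour and mouse cannot be told apart.

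The genes that work with these factors were taken from lists. Of the 4 T-box genes outside the rule, 2 were tested, and Eomes, a gene of mesoderm and T cells, which passed the filter only through KO libraries, was called higher after PHx (3.59 ± 2.53 against 0.0137 ± 0.0307 CPM, SD, n = 5, edgeR adjusted p 7.68e-05), while Tbr1 and the gene T were at or near 0. Of the 3 Sox genes outside the rule, Sox4 was called higher at both stages (log2 fold change 3.64 and 6.05) and Sox9, the cholangiocyte factor, after PHx (2.15), while Sry had no count in either genotype. Of 9 Gata cofactors, all tested, Lmo2 was called higher at baseline (1.72), 1 of 9 beside 11.1% of all genes. After PHx, Tal1 (1.96), Lmo2 (1.34), Gatad2b (1.00) and Ldb1 (0.82) were called higher and Gatad1 (-0.71) lower, beside 16% and 8.2% of all genes. The list's median log2 fold change was 0.48 at baseline and 0.82 after PHx beside -0.03 and -0.01 over all genes.

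Of 10 cardiac partners and targets of T-box and Gata factors, 6 were tested, and 3 were called higher at each stage and 0 lower. Beside these and the next lists, 11.1% of all genes were called higher at baseline and 16% after PHx. Lower were 4.89% and 8.2%. Of the 4 cardiac genes called, Nkx2-5, Isl1 and Tnnt2 passed the filter only with KO libraries, so the counts and the list's median are a description. Nkx2-5, a T-box and Gata partner, had 0 counts in WT and was at least 33.02-fold higher at baseline and at least 41.3-fold higher after PHx. Isl1, a gene of heart progenitors, had 0 counts in WT and was at least 30.5-fold and at least 212-fold higher. Hand2 was called at baseline (log2 fold change 2.19) and Tnnt2, a troponin gene, after PHx (2.97), while the atrial peptide gene Nppa had 0 counts in all 4 groups. The list's median log2 fold change was 1.56 at baseline and 1.77 after PHx, or 1.56 and 1.77 with genes absent from WT at their bounds. Of 11 neural crest partners and targets of Sox10, 7 were tested, and Pax3, Tfap2a and Ednrb were called higher at baseline and Pax3 and Tfap2a after PHx. Pax3 and Tfap2a passed the filter only with KO libraries, and their calls and the list's median are a description. Pax3 had 0 counts in WT and was at least 145-fold and at least 543-fold higher, and the list's median log2 fold change was 0.01 at baseline and 0.61 after PHx, or 0.01 and 0.61 with genes absent from WT at their bounds. Of 10 neural and pluripotency partners of Sox2, 2 were tested, and Pou3f3, which also passed only with KO libraries, was called higher at both stages, at least 26.9-fold at baseline, while Pou5f1 and Fgf4 had 0 counts in all 4 groups. Of 8 cartilage targets of Sox5, Sox6 and Sox9, 2 were tested and 0 called. Of the untested, Comp had 1 count in WT and 336 in KO after PHx, 223 of them in 1 library and 0 in another, and Col2a1 had 0 and 31. Of 12 lymphocyte targets of Tbx21 and Gata3, 3 were tested and 0 called in KO against WT.

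Markers of other cell types also moved, and the counts stand beside those over all genes tested. Of all genes, 11.1% were called higher and 4.89% lower at baseline, and 16% and 8.2% after PHx. Of 10 stellate cell and fibroblast markers, 6 were called higher in KO at baseline and 4 after PHx, among them the matrix genes Lum (log2 fold change 2.44 and 1.51), Col1a1 (2.02 and 1.46) and Col3a1 (1.78 and 1.31) at both stages and the receptor gene Pdgfrb (1.35) at baseline. Their summed level was 180 to 302 CPM in WT and 471 to 649 CPM in KO at baseline, and 205 to 258 CPM and 304 to 546 CPM after PHx, and the median log2 fold change was 1.05 at baseline and 0.69 after PHx. Of 7 cholangiocyte markers tested, 2 were called higher at baseline and 4 after PHx, with Epcam (4.22), Krt19 (3.02), Krt7 (2.84) and Tspan8 (1.71) after PHx. Muc1, which was not called, passed the filter only with KO libraries. Their summed level was 31.8 to 77.1 CPM in WT and 64.8 to 341 CPM in KO at baseline, and 32.4 to 230 CPM and 90.1 to 527 CPM after PHx, and the median log2 fold change was 1.69 at baseline and 1.71 after PHx. Of 8 macrophage markers, Cd68 and Csf1r were called higher at baseline, beside 11.1% of all genes. Only Csf1r was called after PHx, 1 of 8 beside 16%. Of 4 mesothelial markers tested, Msln was called higher at baseline (4.06) and Wt1 after PHx (3.27). All 4 passed the filter only with KO libraries, and their median was 2.36 at baseline and -0.19 after PHx, when Upk3b had 0.549 ± 0.540 CPM in WT and 0.270 ± 0.0707 CPM in KO (SD, n = 5). Of 6 erythroid and megakaryocyte markers tested, Alas2 was called lower at both stages (-1.37 and -1.54) and 0 higher, with a median of 0.90 and 0.07 over the 6, of which Epor and Nfe2 passed the filter only with KO libraries. Of 8 hepatocyte markers 3 were lower at baseline and 2 after PHx, Apoa1 and Serpina1c at both. Of 4 proliferation markers, Ccnb1, which also passed only with KO libraries, was called higher at baseline. The part of these cell types in the members' values was not tested.

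The genes that flank the members were compared as a last check of place. Of 69 nearest protein-coding neighbours that are not members, 47 were tested. At baseline 2 were called higher (Cd68, and Itm2a, which passed the filter only with KO libraries) and 4 lower, beside 11.1% and 4.89% of all genes, and after PHx 4 were called higher and 5 lower, beside 16% and 8.2%. Among the neighbours of members called after PHx, Nt5e, 595937 bases from Tbx18, was called higher after PHx (log2 fold change 2.45, edgeR adjusted p 0.000348). Wars2, which lies 1195 bases from Tbx15, was called lower (-1.11, edgeR adjusted p 0.0173). Rpn1, beside Gata2, was called lower at both stages (-0.44 and -0.56).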

How the data were processed

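Polyadenylated RNA from liver was sequenced as paired ends on a NovaSeq 6000 from 20 samples, per the labels' protocols. The submitters' processing notes name FastQC 0.11.5, Trimmomatic 0.36 and build mm10, and the series' design text names fastp 0.20.0 as the trimmer. The deposited values are raw counts of uniquely mapped reads per gene, per the labels. The aligner, counter, annotation and strand setting are not given in the sources used here. Symbols and positions were taken from GENCODE M21, which held 46091 of the 46603 identifiers.

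From the counts, edgeR 4.0.16 (R 4.3.3) was run over all 4 groups with TMM scaling and its default filter on low counts, which kept 14661 genes, followed by the quasi-likelihood test and Benjamini-Hochberg adjustment over all of them at 0.05. CPM are counts per 1000000 of the TMM-scaled total. SE is the log2 fold change divided by the square root of F. Against a group with 0 counts, folds are bounds from a floor of 3 counts over the group, and with 1 to 3 counts ratios carry exact 95% binomial intervals, and both cover counting error only. DESeq2 1.42.0, other scalings and filters, a time term, a mouse block and leaving out each sample were alternatives. Tables were handled in Python 3.11.15 with pandas 2.3.3 and scipy 1.17.1. On simulated counts with 200 genes changed by 2 log2 units, 67.5% were recovered for KO against WT at baseline, 65.5% after PHx, 76.5% and 71.5% for the responses in WT and KO, and 49.5% for their difference.

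Mouse numbers pair the stages, since both samples of a number came from the same animal per the labels, and residuals of the same mouse correlated between -0.051 and 0.149 over 9 mice. WT baseline replicate 1 carries no mouse number and its mouse was left out of the block fit. Mice of 1 genotype are separate animals. The rule for named genes took every member, up to 4 called genes per list with the largest change, Eed and genes overlapping a member on the other strand (apart from some with at most 13 counts in any group). Other named genes (a count of 5 or fewer, neighbours, markers at 0) were chosen after their values were seen. The members and the gene lists were chosen with earlier results of these data known.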

Additional observations from a re-analysis of the deposited data

Results flagged for a closer look

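In 59 groups of 5 samples looked at for a sample far from the others, 2 stood out, where chance gives about 1 in 20 groups, or 3. Tbx2 in WT after PHx was highest in replicate 2, with 4.61 CPM against 2.88 to 3.37 CPM in the other 4, a gap of 0.719 of the range. Sox5 in WT after PHx was lowest in replicate 4, with 3.72 CPM against 8.46 to 10.1 CPM, a gap of 0.745 of the range (the 95% critical value of Dixon's test is 0.71 for 5 samples). Both libraries are among the 4 low in proliferation markers.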

How the results depend on the processing

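Of 28 calls on members, 14 held under every alternative that tested the gene. At baseline Sox2 did not pass the filter with only the samples compared, so that its call there has no value. Of these 14, 8 compare genotypes in Tbx15, Tbx18, Sox2 and Gata3, which passed the filter only through KO libraries, so that their holding says nothing, and 6 are of Tbx2, Tbx20, Gata2 and Gata6. The other 14 were lost under at least 1, 69 of 571 comparisons in all. At baseline 1 member, Tbx3, was called lower with only the samples compared, beside 18% of all genes. After PHx 7 were called higher at 40 hours alone (8.61% of all genes) and 1, Sox18, lower at 48 hours alone (10.7%), and Gata6 reversed to -0.36 at 40 hours alone. In the WT response, 3 were called higher with library size alone (25.9% of all genes), 2 with DESeq2 (15.5%), 2 of the 13 tested with only the samples compared (13%), 1 without the 30 hour samples (12.7%), and 0 to 1 when a replicate was left out. Lower calls there numbered 1 with DESeq2 size factors, without a filter, with a time term or with only the samples compared (1.14% to 11.1% of all genes), 0 with library size alone (3.97%), 0 without the 4 libraries low in proliferation markers (5.57%), and 0 to 2 when a replicate was left out. In the KO response 10 were called higher with library size alone (27.7% of all genes) and 2 without those 4 libraries (13.8%), and 0 to 1 lower when a replicate was left out. A larger response was called for 1 member by DESeq2, and for 0 to 1 when a replicate was left out, the 1 being Gata2 without KO replicate 10 after PHx. The causes of these changes were not tested. Library size alone moved the median log2 fold change of all genes to 0.45 at baseline and 0.37 after PHx, and calls over all genes from 1631 higher and 717 lower to 3521 and 113 at baseline, and from 2342 and 1202 to 3897 and 296 after PHx. Leaving out the 4 libraries and the single hours were chosen after seeing the data.

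With the mouse as a replicate block, 1 member was called lower in the WT response, beside 7.31% of all genes. Without the block in the same 9 mice it was 1 as well, beside 7.24%. In the KO response the block fit called 1 lower, beside 11.7% of all genes. Against those 9 mice without the block, the block ended the calls of Tbx18 and Tbx20 in KO, added Sox2 (higher) and Sox18 (lower) in KO, and changed no other call on members. Sox6 in WT was not called and Sox21 in KO was called in both fits of the 9 mice. Sox2 and Sox21 passed the filter only through the KO libraries after PHx, the high group of that comparison, so their calls are a description.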
